A study of Mus musculus with 15 samples.

Results

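The comparison set mouse cells cultured with the morphogens SHH and FGF8 against cells cultured without them, at day 14 of differentiation. It uses 6 of the 15 samples of the study, chosen by their labels alone: 3 arrays of treated cells and 3 arrays of control cells at day 14. All cells descended from mouse epiblast stem cells (EpiSC), a primed pluripotent cell, derived from mice with a GFP reporter of Pitx3, a gene of midbrain dopaminergic neurons. Treated cells received SHH and FGF8 from day 5 onward, and control cells went through the same days without morphogens. The labels call the treated cells DA cells and the control cells EpiSC, and do not say whether the 3 samples of a group came from separate cultures. P-values therefore measure the spread between these samples, which may be technical. No further genotype, sort or cell purity is given. Only miRNAs were measured, so neither GFP nor any dopaminergic mRNA bears on the name DA cells here. With no sort given, whole cultures are assumed to have been profiled. In such bulk RNA fewer cells of a type and less RNA per cell cannot be told apart.

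As background, a miRNA is a short RNA that guides Argonaute proteins to messenger RNAs and lowers their output, mainly through its seed, bases 2 to 8. miRNAs with the same seed can share targets. SHH ventralises the neural tube and FGF8 is the signal of the midbrain-hindbrain boundary, and ventral midbrain progenitors exposed to both can become dopaminergic neurons. As neural cells differentiate, miR-124, miR-9 and the let-7 family typically rise and the miR-302 cluster of primed pluripotency falls.

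The sequences below are those of miRNAs on which the results turn, with the seed in capitals, from RefSeq (mouse build GRCm38.p6). The first set holds miRNAs that were higher in treated cells. In it miR-27a-3p and miR-27b-3p share a seed, as do the miR-29 members, and as do miR-148a-3p and miR-152-3p.
miR-34b-5p: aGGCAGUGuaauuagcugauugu
miR-23a-3p: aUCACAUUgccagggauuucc
miR-27a-3p: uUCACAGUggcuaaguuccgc
miR-27b-3p: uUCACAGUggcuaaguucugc
miR-29a-3p: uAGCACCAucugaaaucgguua
miR-29b-3p: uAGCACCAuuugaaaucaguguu
miR-29c-3p: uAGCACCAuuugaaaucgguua
miR-148a-3p: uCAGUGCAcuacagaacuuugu
miR-152-3p: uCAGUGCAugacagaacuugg
miR-218-5p: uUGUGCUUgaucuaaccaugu
miR-370-3p: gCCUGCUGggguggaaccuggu

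The second set shows miRNAs with 1 seed whose levels went in opposite directions: miR-132-3p and miR-212-3p share AACAGUC, and miR-92a-3p, miR-92b-3p and miR-363-3p share AUUGCAC.
miR-132-3p: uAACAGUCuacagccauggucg
miR-212-3p: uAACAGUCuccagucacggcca
miR-92a-3p: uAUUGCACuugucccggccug
miR-92b-3p: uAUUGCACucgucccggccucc
miR-363-3p: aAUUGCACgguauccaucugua

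The third set shows miRNAs that were lower in treated cells, with both arms of the miR-9 hairpin and both arms of miR-129.
miR-9-5p: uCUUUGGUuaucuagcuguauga
miR-9-3p: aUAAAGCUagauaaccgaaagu
miR-129-5p: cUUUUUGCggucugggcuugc
miR-129-2-3p: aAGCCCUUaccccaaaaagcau
miR-128-3p: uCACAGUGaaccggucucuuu
miR-138-5p: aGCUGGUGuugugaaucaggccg
let-7i-5p: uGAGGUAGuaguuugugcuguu

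Levels are given as log2 of the scaled array signal, where 0 is the array's own reference level and the lowest value allowed, the floor, is -4.27. Differences are treated minus control on the same log2 scale, each with limma's standard error (SE) and p adjusted by Benjamini-Hochberg over 306 miRNAs, and a miRNA was called where that p was below 0.05. The SE pools the spread within groups over all 15 arrays, and a group wholly at the floor adds a spread of 0. For miRNAs at the floor in some groups, SE and p can thus be too small for the day 14 arrays. The 306 miRNAs were those of 1122 on the array with signal above background on every array of 1 or more of the study's 5 groups. On the day 14 arrays outlier spots made up 3.88% to 4.71%, and 0 spots were saturated. The reference level was 215 to 315 intensity units. Above background were 284 to 333 miRNAs per array in treated cells and 261 to 273 in controls, without overlap. Treated replicates 1 and 2 had the highest reference levels and the most miRNAs above background. The part of these array differences in the calls was not tested. Replicates correlated at 0.989 to 0.998 within groups (Pearson, over 306 miRNAs that are not independent replicates). Treated replicates 1 and 2 were hybridised on slide 1, and treated replicate 3 and all 3 controls on slide 2.

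Of the 306 miRNAs, 163 (53.3%) differed between treated and control cells, 119 (38.9%) higher in treated cells and 44 (14.4%) lower. The 3 treated arrays lay entirely above or below the 3 control arrays for 171 miRNAs (55.9%), of which 157 were called. Most differences were small: 26 of the increases and 4 of the decreases exceeded 2-fold. The ratio of increases to decreases depended on how arrays were scaled, because the median of all 306 differences was 0.21 here. With the 75th percentile over all probes the median was -0.08 with 37 higher and 77 lower, with quantile normalization it was 0.00 with 69 and 65, and with median scaling it was 0.01 with 76 and 64. With slide as a block, which rests on treated replicate 3 against the controls, 73 were higher and 34 lower, and the median was 0.12. The miRNAs called in the same direction in all of these 5 fits were 34 higher and 30 lower, and they are called steady below. Among these 64 the median difference was 1.08 for those higher and -0.57 for those lower.

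**Figure D1:**
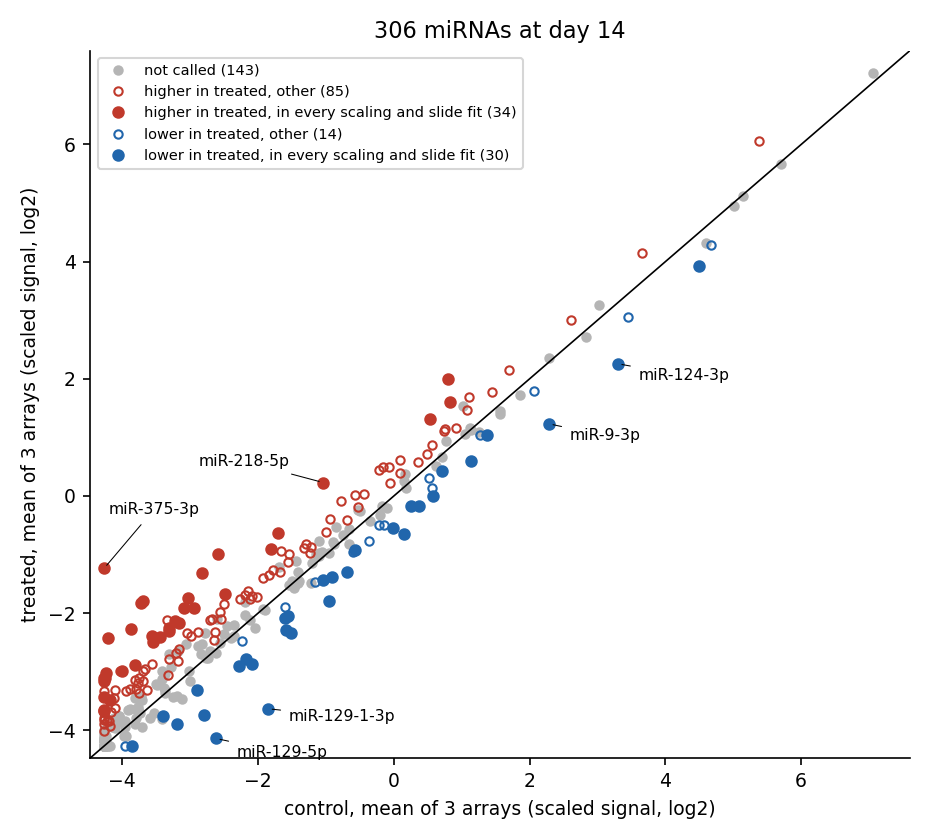
Mean scaled signal (log2) of 306 miRNAs in control cells (x axis) and treated cells (y axis) at day 14, each the mean of 3 arrays, with the line of equal signal. Filled colours mark the 34 higher and 30 lower miRNAs called in every scaling and in the fit with slide as a block, open circles the other calls, and grey those not called; miR-375-3p lies at the floor in controls.

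The signal of a probe was related to its direction. With the miRNAs ranked by mean signal into 3 equal sets of 102, 36 were higher and 5 lower in the dimmest set, 47 and 14 in the middle set, and 36 and 25 in the brightest set. Among steady miRNAs the split was 11 higher and 4 lower in the dimmest set and 5 higher and 15 lower in the brightest. The part of signal strength in the direction of a call was not tested.

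The largest increase belonged to miR-375-3p, known from pancreatic endocrine cells and other neuroendocrine tissue. Its level was -1.19, -1.13 and -1.40 on the treated arrays and at the floor on the 3 control arrays, where it was not well above background. The groups were far apart, and miR-375-3p was at least 7.90-fold higher in treated cells, measured against the lowest signal that counts as above background (adjusted p = 5.9e-13, limma). It was also at the floor at day 5 and in day 9 controls, and stood at -0.53 ± 0.08 (SD, n = 3) in treated cells at day 9. The groups at the floor add a spread of 0 to the p above, which can make it too small. The other arm, miR-375-5p, was above background on 0 of 15 arrays.

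miR-34b-5p and miR-34c-5p, made from 1 transcript that p53 induces, moved together. miR-34b-5p was at -1.66, -1.73 and -1.97 in treated cells and at -3.82, -3.68 and -3.56 in controls, 3.73-fold higher (log2 difference 1.90, SE 0.12, adjusted p = 2.1e-08). miR-34c-5p was at -1.67, -1.96 and -1.88 against -3.77, -3.54 and -3.86, 3.71-fold higher (1.89, SE 0.11, adjusted p = 8.3e-09). Neither pair of groups overlapped. At day 5, before morphogens, miR-34b-5p stood at -1.23 ± 0.24 (SD, n = 3). In treated cells it was -0.69 ± 0.05 at day 9 and -1.79 ± 0.16 at day 14, and in controls -2.57 ± 0.13 and -3.69 ± 0.13. Both groups thus had lower means at day 14 than at day 9, with about the same distance between them. The family, with miR-449, has 9 further members on the array, which were not tested, and 8 of them were above background on 0 of 15 arrays.

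**Figure D2:**
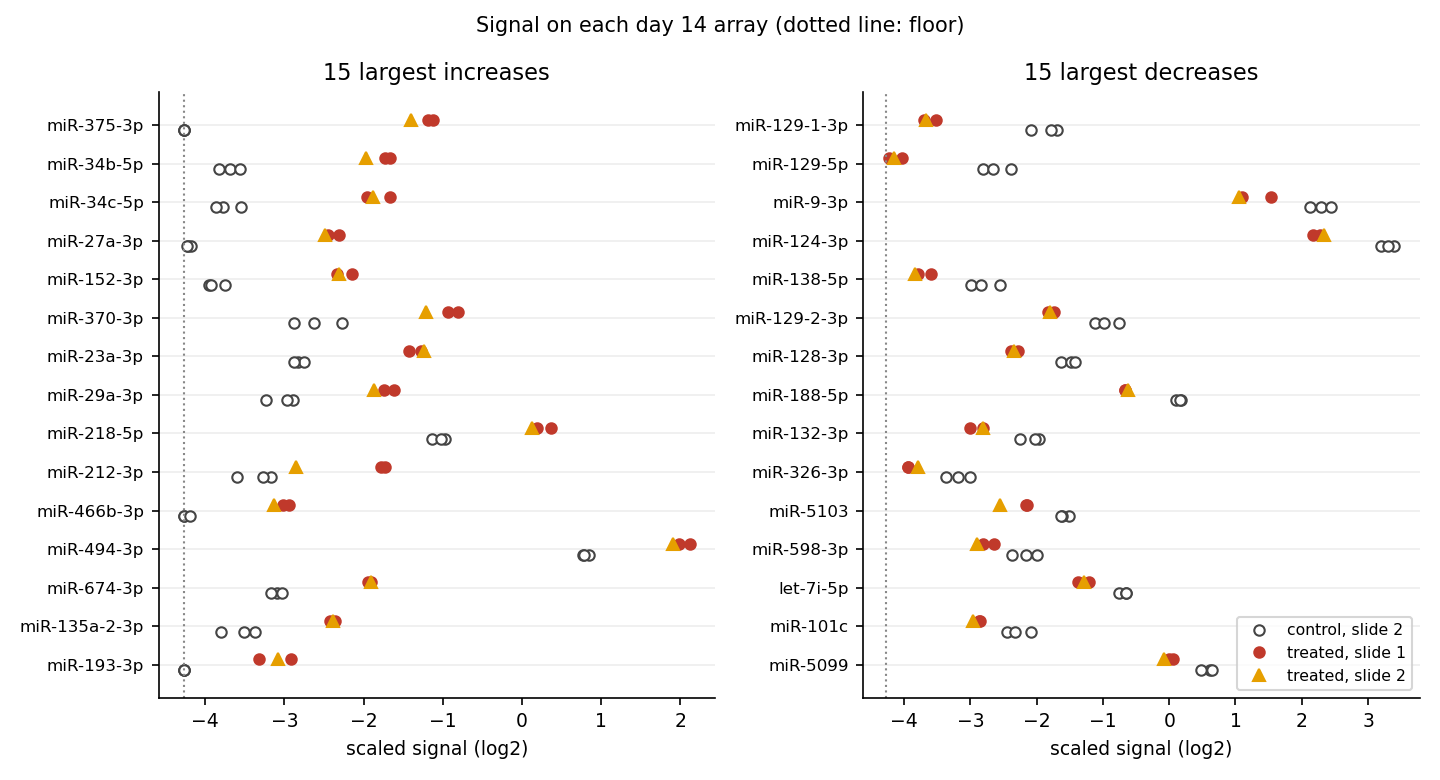
Scaled signal (log2) on each day 14 array for the 15 largest increases and 15 largest decreases (called miRNAs without overlap between groups). Red circles are treated arrays on slide 1, orange triangles treated replicate 3 on slide 2 and open circles the controls on slide 2; the triangle of miR-212-3p lies at -2.85, apart from the red circles at -1.78 and -1.73.

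All 5 tested members of the miR-23, miR-27 and miR-24 clusters were higher, beside 38.9% of all miRNAs tested. These miRNAs come from hairpins on chromosomes 8 and 13, and are known from endothelial, muscle and neural tissue. miR-23a-3p was at -1.28, -1.43 and -1.23 in treated cells and at -2.83, -2.75 and -2.88 in controls, 2.85-fold higher (SE 0.07 around 1.51, adjusted p = 1.5e-09). The groups did not overlap, and treated replicate 3 was the highest of the 6. miR-27a-3p was at -2.31, -2.45 and -2.49 in treated cells and near the floor at -4.22, -4.18 and -4.23 in controls, where 2 of 3 arrays were above background (log2 difference 1.79, SE 0.08, adjusted p = 1e-09). With a floor 4 times higher all 6 values of miR-27a-3p fell at the floor.

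The other 3 members shared this direction with smaller differences. miR-24-3p, which both clusters encode, differed by 0.90 (SE 0.08), miR-27b-3p by 0.81 (SE 0.10) and miR-23b-3p by 0.56 (SE 0.10). Each had groups that did not overlap, and 4 of the 5 were steady, miR-23b-3p being the exception with 0.18 under the all-probe percentile. All 5 were higher with slide as a block. The members from the chromosome 8 cluster, miR-23a-3p and miR-27a-3p, differed more than their chromosome 13 counterparts, and the difference between clusters was not tested. miR-27a-3p and miR-27b-3p differ by few bases and may share probe signal, so the clusters may not be separated fully.

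The miR-29 family, known to hold down extracellular matrix genes and to rise in maturing neurons, was higher in 3 of 3 members, beside 38.9% of all miRNAs. With the 75th percentile over all probes or quantile normalization 1 was higher, and with median scaling or slide as a block 2 were. miR-29a-3p was at -1.62, -1.74 and -1.87 in treated cells and at -3.23, -2.89 and -2.97 in controls, 2.44-fold higher (1.29, SE 0.09, adjusted p = 6.8e-08). miR-29c-3p differed by 0.55 (SE 0.08) and was not called with 2 of the other scalings. miR-29b-3p was at -3.54, -3.76 and -4.18 in treated cells, so the array on slide 2 was the closest to the controls, which all lay at the floor. It was at least 1.31-fold higher, but differed by only 0.09 with slide as a block (adjusted p = 0.53). Of this family only miR-29a-3p was steady. The miR-29 members also differ by few bases and may share probe signal.

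In the list of neuronal miRNAs 14 of 21 tested members were lower and 3 higher, beside 14.4% and 38.9% of all miRNAs, and the list's median was -0.40 beside 0.21. With the other scalings 14 or 15 were lower and 2 higher, and with slide as a block 13 and 2. The summed scaled signal of the list was 20.2 to 23.6 on the treated arrays and 29.5 to 35.0 on the control arrays. This sum adds signals before log2, so it reflects mostly the brightest members, miR-124-3p, miR-9-5p and miR-9-3p, and not the list as a whole. Of the 14 that were lower, 12 were steady. Among the 14, miR-383-5p was tested only through the control arrays at day 14, where alone it was above background.

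miR-129, a brain-enriched miRNA that targets synaptic and excitability genes, was lower in all 3 measured arms, and miR-129-1-3p and miR-129-5p had the largest decreases of all called miRNAs. miR-129-1-3p was at -3.70, -3.52 and -3.67 in treated cells and at -2.08, -1.69 and -1.79 in controls, 3.43-fold lower (difference -1.78, SE 0.09, adjusted p = 1.7e-09). miR-129-5p, which hairpins on chromosomes 2 and 6 both encode, was at -4.23, -4.04 and -4.15 against -2.81, -2.39 and -2.66, 2.87-fold lower (difference -1.52, SE 0.09). Treated values of miR-129-5p lay just above the floor, and with a floor 4 times higher all 6 arrays fell at it. miR-129-2-3p was at -1.83, -1.74 and -1.80 against -1.11, -0.75 and -0.99 (difference -0.84, SE 0.15, adjusted p = 0.00035). No treated array reached any control array for the 3 arms.

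miR-129-1-3p and miR-129-5p were at the floor on all day 5 arrays. miR-129-5p was above background on 0 arrays of day 5 and day 9, and on all 6 at day 14. miR-129-2-3p stood at -1.78 in treated and -3.10 in control cells at day 9, the opposite order to day 14.

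miR-124-3p, the most studied neuronal miRNA, which holds down non-neuronal genes, was at 2.17, 2.27 and 2.33 in treated cells and at 3.19, 3.40 and 3.30 in controls, 2.06-fold lower (difference -1.04, SE 0.07, adjusted p = 3.7e-08). The highest treated array lay below the lowest control array. Levels had risen in both groups, from 1.05 ± 0.07 (SD, n = 3) at day 5 to 1.33 in treated and 2.30 in control cells at day 9. The passenger arm miR-124-5p lay at or near the floor on all 6 arrays.

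Both arms of miR-9, which promotes neuronal differentiation from progenitors, were lower. miR-9-3p was at 1.10, 1.54 and 1.05 in treated cells and at 2.12, 2.30 and 2.44 in controls, 2.07-fold lower (difference -1.05, SE 0.13, adjusted p = 1.9e-05). miR-9-5p was at 3.04, 3.21 and 2.89 against 3.30, 3.60 and 3.45 (difference -0.40, SE 0.11, adjusted p = 0.0057). Neither arm's groups overlapped, and the difference of miR-9-5p was -0.24 and not called with quantile normalization. Whether the arms differed in size of change was not tested.

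miRNAs of maturing neurons were lower as well. miR-138-5p, which limits dendritic spine growth, was at -3.78, -3.59 and -3.83 in treated cells and at -2.99, -2.56 and -2.83 in controls (difference -0.94, SE 0.09, adjusted p = 2.2e-06). miR-128-3p, known to set neuronal excitability, was at -2.39, -2.28 and -2.35 against -1.64, -1.48 and -1.42 (difference -0.82, SE 0.08, adjusted p = 3.1e-06). In both, the 6 arrays split cleanly by treatment. miR-598-3p differed by -0.61 (SE 0.09), miR-137-3p by -0.47 (SE 0.13), miR-488-3p by -0.36 (SE 0.09) and miR-153-3p by -0.28 (SE 0.10), each with groups that did not overlap. miR-383-5p was above background on 3 of 3 control arrays and 0 of 3 treated arrays, at least 1.25-fold lower in treated cells, though 1 control array lay at the floor with the treated ones. It was above background on no other array of the study. The control arrays alone let it be tested, so its call partly restates the filter.

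The 3 neuronal miRNAs that were higher were miR-218-5p, miR-212-3p and miR-551b-3p. miR-218-5p, a miRNA of midbrain dopaminergic and motor neurons, was at 0.37, 0.19 and 0.13 in treated cells and at -1.13, -0.97 and -1.02 in controls, 2.41-fold higher (difference 1.27, SE 0.10, adjusted p = 3e-07). Its groups did not overlap, and it was higher with slide as a block by 1.17. miR-551b-3p differed by 0.28 (SE 0.05).

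miR-132-3p and miR-212-3p are neighbours on chromosome 11, share a seed, and are induced together by neuronal activity through CREB. At day 14 they lay on opposite sides of the controls. miR-132-3p was at -3.01, -2.81 and -2.80 in treated cells and at -2.25, -1.97 and -2.03 in controls (difference -0.79, SE 0.12, adjusted p = 0.0001), with no overlap. miR-212-3p was at -1.78, -1.73 and -2.85 in treated cells and at -3.60, -3.17 and -3.26 in controls (difference 1.23, SE 0.26, adjusted p = 0.0014). Treated replicate 3, on the slide of the controls, was 1.09 below the mean of the slide 1 arrays, the largest such gap among called miRNAs. With a block for slide miR-212-3p differed by 0.50 (adjusted p = 0.15), while miR-132-3p differed by -0.72 (adjusted p = 0.0074). The increase of miR-212-3p was thus called with the slide 1 arrays and not from treated replicate 3 against the controls.

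Of 13 tested miRNAs that the literature links to dopaminergic neurons, 6 were higher and 3 lower, beside 38.9% and 14.4% of all miRNAs. The list's median was 0.24, and 0.03 to 0.18 with the other scalings, and the count with slide as a block was 5 and 3. Most members stand in other lists too. The 6 were miR-34b-5p, miR-34c-5p, miR-218-5p and 3 products of the miR-135a hairpins, and the 3 were miR-124-3p, miR-132-3p and miR-135b-5p. miR-7a-5p, which represses alpha-synuclein, was at -0.26, -0.05 and -0.45 in treated cells and at -0.69, -0.38 and -0.41 in controls. These groups overlapped, and miR-7a-5p was not called (difference 0.24, SE 0.12, adjusted p = 0.13). On 0 of 15 arrays was miR-133b-3p above background, a miRNA reported in the dopaminergic midbrain.

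The miR-135 miRNAs, linked to Wnt signalling and the size of the midbrain progenitor pool, differed between hairpins. miR-135a-2-3p was at -2.42, -2.35 and -2.38 in treated cells and at -3.80, -3.51 and -3.37 in controls (difference 1.17, SE 0.12, adjusted p = 2.1e-06). miR-135a-1-3p, from the other miR-135a hairpin, was at -1.72, -1.90 and -2.10 against -2.94, -2.87 and -3.03 (difference 1.04, SE 0.12, adjusted p = 1.1e-05). Both were steady. miR-135a-5p, the arm both hairpins share, was at 0.53, 0.70 and 0.10 against -0.36, -0.13 and -0.18 (difference 0.67, SE 0.15), and differed by 0.32 with slide as a block (adjusted p = 0.19). miR-135b-5p, of a separate hairpin, was at -0.24, -0.0020 and -0.25 in treated cells and at 0.16, 0.48 and 0.45 in controls (difference -0.53, SE 0.11, adjusted p = 0.0014). It was lower on every treated array than on any control array, the opposite of miR-135a-5p.

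**Figure D3:**
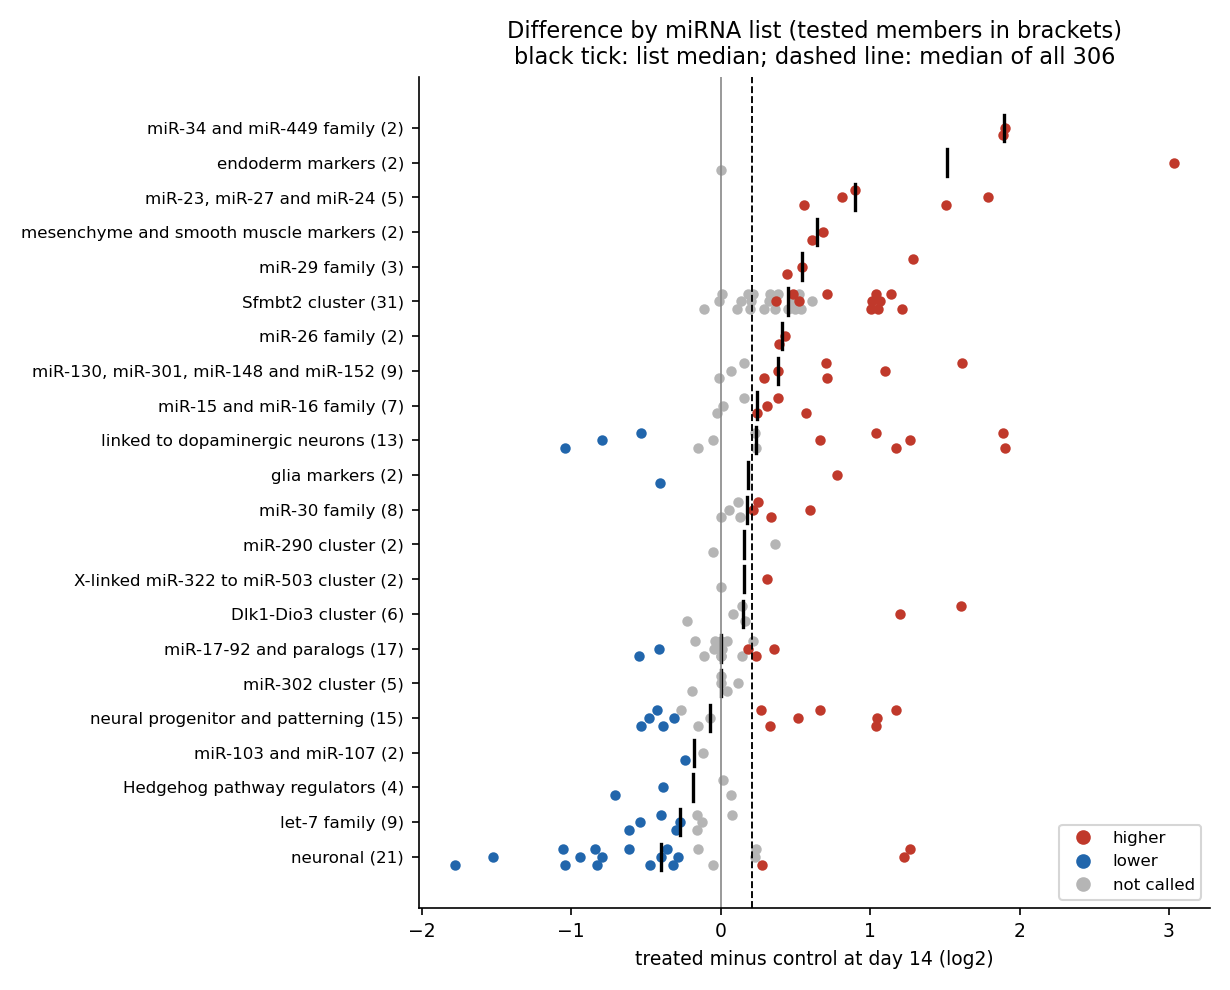
Treated minus control at day 14 (log2, x axis) for the tested members of each miRNA list with at least 2 of them, coloured by call, with the list median as a black tick. The dashed line is the median of all 306 miRNAs, 0.21; the neuronal list has its median at -0.40 and the miR-23, miR-27 and miR-24 list at 0.90.

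Of 15 tested miRNAs of neural progenitors and patterning, 7 were higher and 5 lower, beside 38.9% and 14.4% of all miRNAs, with a median of -0.07. The balance turned with the scaling: 3 were higher and 8 lower with the 75th percentile over all probes, 5 and 8 with median scaling, and 7 and 6 with quantile normalization. Fitting slide as a block gave 5 higher and 3 lower. The 3 members of the miR-99 and miR-100 family, which restrain mTOR signalling, were all higher: miR-99b-5p by 0.52 (SE 0.10), miR-99a-5p by 0.33 (SE 0.06) and miR-100-5p by 0.27 (SE 0.07). Of 4 miR-181 members 3 were lower: miR-181c-5p by -0.48 (SE 0.07), miR-181a-5p by -0.43 (SE 0.08) and miR-181d-5p by -0.31 (SE 0.09). The difference of miR-181b-5p was -0.15 (adjusted p = 0.083). miR-181c-5p and miR-181a-5p were steady, and no miR-99 or miR-100 member was.

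miR-92b-3p, known from cortical progenitors, went against its seed relatives. It was at -2.35, -2.35 and -2.49 in treated cells and at -3.52, -3.38 and -3.44 in controls (difference 1.05, SE 0.16, adjusted p = 9.9e-05). miR-92a-3p, of the miR-17-92 cluster that promotes proliferation, was at 0.61, 0.54 and 0.64 in treated cells and at 1.15, 1.16 and 1.11 in controls (difference -0.54, SE 0.08, adjusted p = 9e-05). miR-363-3p lay at the floor on all 3 treated arrays, with 1 of them above background, and at -3.91, -3.84 and -3.82 in controls (difference -0.41, SE 0.07). All 3 were steady and had groups that did not overlap. The remaining family members, miR-25-3p, miR-32-5p and miR-367-3p, were not called.

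The let-7 family marks differentiation and represses Lin28. Of its 9 tested members 5 were lower and 0 higher, beside 14.4% and 38.9% of all miRNAs. The family's median was -0.27, beside 0.21 for all miRNAs, and it was -0.64 to -0.44 with the other scalings. let-7i-5p was at -1.38, -1.22 and -1.29 in treated cells and at -0.75, -0.65 and -0.66 in controls (difference -0.61, SE 0.09, adjusted p = 9.9e-05). let-7g-5p was at -0.58, -0.43 and -0.64 against -0.11, 0.05 and 0.04 (difference -0.54, SE 0.08, adjusted p = 5.8e-05). Both were steady, with no treated array reaching a control array. let-7b-5p, let-7d-5p and let-7c-5p differed by -0.40, -0.30 and -0.27 (SE 0.09 to 0.11). With slide as a block none of these 3 was called, and miR-98-5p, a member of the family by its seed, was lower by -0.31 (adjusted p = 0.033) where its difference over all arrays was -0.16 (adjusted p = 0.14). The call of let-7c-5p (adjusted p = 0.048) was lost when treated replicate 1 or 2, or control replicate 2 or 3, was left out. These miRNAs differ by few bases and may share probe signal.

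Among the miRNAs known to act on the Hedgehog pathway, 2 of 4 tested were lower and 0 higher, beside 14.4% and 38.9% of all miRNAs. With quantile normalization or with slide as a block 1 was lower. miR-326-3p, which targets Smoothened, was at -3.94, -3.95 and -3.79 in treated cells and at -3.37, -3.01 and -3.19 in controls (difference -0.70, SE 0.08, adjusted p = 8.7e-06). It was at the floor in both groups at day 9. miR-125b-5p, which also targets Smoothened, was at 4.20, 4.31 and 4.35 against 4.53, 4.76 and 4.73 (difference -0.38, SE 0.10), and was not called with quantile normalization or with slide as a block (adjusted p = 0.12). The groups of both miRNAs did not overlap. Both arms of miR-324 differed by less than 0.10 and were not called.

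Families tied to proliferation and pluripotency differed little. Of 17 tested members of the miR-17-92 cluster and its paralogs 3 were higher and 2 lower, beside 38.9% and 14.4% of all miRNAs, with a median of 0.00, and the 2 lower were miR-92a-3p and miR-363-3p. With the 75th percentile over all probes 0 were higher and 6 lower (median -0.23), and 0 were higher with each other scaling or with slide as a block. The 3 higher, miR-106b-3p, miR-93-5p and miR-17-3p, differed by 0.36, 0.24 and 0.19, and all 3 turned negative with the 75th percentile over all probes (-0.02, -0.14 and -0.19). Of the 5 tested miR-302 cluster members 0 were called by limma (and 0 at an unadjusted p under 0.05), though 2 were lower with quantile normalization and 1 with the 75th percentile over all probes, and miR-302a-3p and miR-302b-3p lay at the floor on all 6 arrays. miR-302d-3p was at -3.21, -3.17 and -3.58 in treated cells and at -3.26, -3.41 and -3.43 in controls, overlapping, after 0.09 at day 5. miR-290-5p, of the miR-290 cluster of naive pluripotency, differed by 0.37 without passing the threshold (adjusted p = 0.056).

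Other broadly expressed families held small increases, few of them steady. In the miR-15 and miR-16 family, which restrains the cell cycle, 4 of 7 were higher (38.9% of all miRNAs were) and 0 steady, led by miR-15b-5p with 0.57 (SE 0.10). The direction of this count turned with the scaling, to 0 higher and 2 lower with the 75th percentile over all probes and to 1 and 3 with quantile normalization. In the miR-30 family 4 of 8 were higher, beside 38.9% of all miRNAs, and 1 was higher and 1 lower with the 75th percentile over all probes. With slide as a block 1 was higher. The 1 steady member, the passenger arm miR-30c-1-3p, was at least 1.47-fold higher and was above background on 0 control arrays. Over the whole study it was above background on 5 arrays. The treated day 14 arrays alone let miR-30c-1-3p be tested, so its call partly restates the filter. In the miR-26 family, linked to neuronal differentiation, miR-26a-5p and miR-26b-5p differed by 0.39 and 0.43, and neither was called with the 75th percentile over all probes or with median scaling. miR-107-3p was lower by -0.24 with overlapping groups, a call that the block for slide removed.

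In the miR-130, miR-301, miR-148 and miR-152 group 6 of 9 were higher and 0 lower, beside 38.9% and 14.4% of all miRNAs. With the 75th percentile over all probes 3 were higher and 1 lower. miR-152-3p, which targets the DNA methyltransferase Dnmt1, was at -2.14, -2.34 and -2.31 in treated cells and at -3.96, -3.93 and -3.75 in controls, 3.06-fold higher (difference 1.61, SE 0.13, adjusted p = 2e-07). miR-148a-3p, with the same seed, was at -2.08, -2.01 and -2.29 against -3.34, -3.23 and -3.12 (difference 1.10, SE 0.15, adjusted p = 3.8e-05). Both were steady without overlap. The remaining member with this seed, miR-148b-3p, was at -2.10, -2.10 and -2.41 against -2.49, -2.28 and -2.31, with overlapping groups (difference 0.16, adjusted p = 0.26).

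The Dlk1-Dio3 cluster is a large imprinted miRNA cluster on chromosome 12, expressed from the maternal allele in stem cells and brain. The list used for it, which leaves out miR-432 of the same locus (difference 0.02, not called), has 102 miRNAs on the array. Of these, 10 had signal above background on any day 14 array, 6 were tested and 2 were higher, beside 38.9% of all miRNAs. miR-370-3p was at -0.94, -0.80 and -1.21 in treated cells and at -2.27, -2.87 and -2.62 in controls, 3.05-fold higher (difference 1.61, SE 0.15, adjusted p = 1e-06). miR-494-3p was at 2.12, 1.98 and 1.91 against 0.85, 0.78 and 0.78, 2.30-fold higher (difference 1.20, SE 0.10, adjusted p = 2.6e-07). Neither had groups that overlapped. The other 4 tested members, miR-3072-5p, miR-376a-3p, miR-487b-3p and miR-770-3p, lay between -0.22 and 0.16 and were not called. miR-770-3p, at -0.22, was called lower under each of the 3 other scalings and with slide as a block (-0.56, adjusted p = 0.00034).

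A list of miR-297, miR-466, miR-467 and miR-669 names, best known from the repeated hairpins of the Sfmbt2 cluster on chromosome 2, had 31 tested members. Not all lie there, since RefSeq places miR-669n on chromosome 3. Of the 31, 11 were higher and 0 lower, a share near the 38.9% of all miRNAs that were higher, with a median of 0.45. With the other scalings 7 to 8 were higher and the median was 0.11 to 0.24, and 7 were higher with slide as a block. miR-669f-3p was at -0.60, -0.56 and -0.75 in treated cells and at -1.82, -1.66 and -1.62 in controls (difference 1.07, SE 0.09, adjusted p = 4.7e-07). miR-466b-3p and miR-467a-5p differed by 1.21 and 1.14, each above background on only 1 of 3 control arrays. miR-467b-5p differed by 1.06 (SE 0.07), and miR-467d-3p by 1.04 (SE 0.24), with a block for slide at adjusted p = 0.067. Members of this list may share probe signal and are uncertain as single miRNAs.

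Markers of other cell types were few. Of 17 striated muscle, 12 endothelial and blood, 10 miR-200 and 11 Hox-cluster miRNAs, 0 were above background on any of 15 arrays. Of 17 endoderm miRNAs only miR-375-3p was above background at day 14, while every arm of miR-217, miR-215, miR-122, miR-194 and miR-192 was above it on 0 of 15 arrays. The summed signal of that list was 1.21 to 1.29 on treated arrays and 0.88 on control arrays, and the excess was miR-375-3p itself.

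Of 11 mesenchyme miRNAs 4 were above background at day 14 and 2 were tested, both higher, beside 38.9% of all miRNAs. The list's summed signal was 1.44 to 1.53 on treated and 1.07 to 1.13 on control arrays. miR-21-5p was at -0.07, -0.02 and -0.18 in treated cells and at -0.86, -0.75 and -0.72 in controls (difference 0.69, SE 0.12). miR-199a-3p, at -3.44, -3.90 and -3.64, was at least 1.47-fold higher and above background on 0 control arrays. Both arms of the defining miR-214, miR-145 and miR-143 were above background on 0 of 15 arrays. Both glial miRNAs tested were called in opposite directions: miR-219-5p, needed for oligodendrocyte maturation, was at 1.50, 1.36 and 1.11 against 0.59, 0.52 and 0.51 (difference 0.78, SE 0.11), and miR-338-3p was at -3.19, -3.34 and -3.39 against -3.08, -2.75 and -2.88 (difference -0.41, SE 0.10). Neither overlapped between groups. The part of other cell types in the differences above was not tested.

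Of 334 miRNAs above background on any day 14 array, 246 were so on all 6. On all 3 treated arrays and 0 control arrays there were 14, among them miR-375-3p, miR-676-3p (at least 2.09-fold higher), miR-193-3p (at least 2.16-fold), miR-5117-3p (at least 1.85-fold), miR-674-5p (at least 1.73-fold) and miR-1231-5p (at least 1.35-fold). Of these, miR-30c-1-3p, miR-376a-3p, miR-5120 and miR-7a-2-3p passed the filter through the treated day 14 arrays alone. miR-383-5p was the 1 miRNA with the reverse pattern, and it passed the filter through the control arrays alone. miR-5117-3p was at -3.17, -2.95 and -3.88 and miR-1231-5p at -3.63, -3.64 and -4.09, so treated replicate 3 was nearest to the controls, and with slide as a block neither was called (adjusted p = 0.18 and 0.55).

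Further single miRNAs stood out by size. miR-674-3p was at -1.91, -1.94 and -1.90 in treated cells and at -3.09, -3.16 and -3.03 in controls (difference 1.18, SE 0.12, adjusted p = 2.1e-06). miR-188-5p was at -0.66, -0.67 and -0.63 against 0.10, 0.18 and 0.17 (difference -0.80, SE 0.09, adjusted p = 4.7e-06). Neither had groups that overlapped, and both were steady. miR-5103 differed by -0.70 (SE 0.13), miR-101c by -0.61 (SE 0.09) and miR-5099 by -0.58 (SE 0.10), each without overlap. The sequence of miR-101c lies within that of miR-101a-3p, so they may share probe signal. miR-101a-3p differed by -0.21 and was not called (adjusted p = 0.11), though it was called lower with the 3 other scalings. miR-101b-3p was higher by 0.58 and was not steady. miR-210-3p, a hypoxia-induced miRNA, was higher by 0.77 (SE 0.09).

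Calls were counted by seed family. Of 21 families with at least 2 tested members and a known sequence, 10 held only increases among their calls, 4 only decreases, 3 both and 4 no call. Of the 14 with calls in 1 direction, 5 held a single call and so could not hold both. The 3 with both were the miR-92 family, miR-132 and miR-212, and the seed GUAAACA, where miR-384-5p was lower by -0.23 and miR-30a-5p higher by 0.22. The last pair was small: miR-384-5p had overlapping groups, and neither was steady.

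Of 41 pairs of arms from 1 hairpin, both arms were called in 12, and in 11 of these in the same direction. The pairs are not all separate: miR-129-5p and miR-135a-5p, each made by 2 hairpins, are counted with both of their 3p arms. Since 119 of all 163 calls were higher, calls of unrelated miRNAs would often agree too. The exception among the pairs was miR-3096b, with the 3p arm higher by 0.65 (SE 0.09). Its 5p arm was lower by -0.22 (SE 0.07), which became 0.11 with the mean over probes. In 13 pairs 1 arm was called and in 16 neither. Of 28 groups of hairpins within 10 kb on 1 strand, 4 held calls in both directions. On the X chromosome miR-188-5p was lower while its neighbours miR-362-3p, miR-500-3p, miR-532-3p and miR-532-5p were higher by 0.68, 0.39, 0.71 and 0.67, though none of these 4 was steady. On chromosome 16 miR-365-3p was higher by 1.00 (SE 0.11) beside its neighbour miR-193b-3p, which differed by -0.05 (adjusted p = 0.81). miR-365-3p has a further hairpin elsewhere.

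Slide and treatment were partly confounded, since all controls shared a slide with only 1 treated array. All 163 called miRNAs had the same sign within slide 2, and treated replicate 3 lay beyond all 3 controls for 158. The calls used these same arrays, so this agreement is largely fixed by the selection and does not test the part of slide. Treated replicate 3 was the treated array nearest to the controls for 74 of 119 higher and 17 of 44 lower miRNAs, and the farthest for 22 and 17. The median gap between slide 1 and slide 2 treated arrays was 0.08, being 0.11 among higher and 0.01 among lower miRNAs. With slide as a block 107 miRNAs were called, and 59 of the 163 calls were lost.

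**Figure D4:**
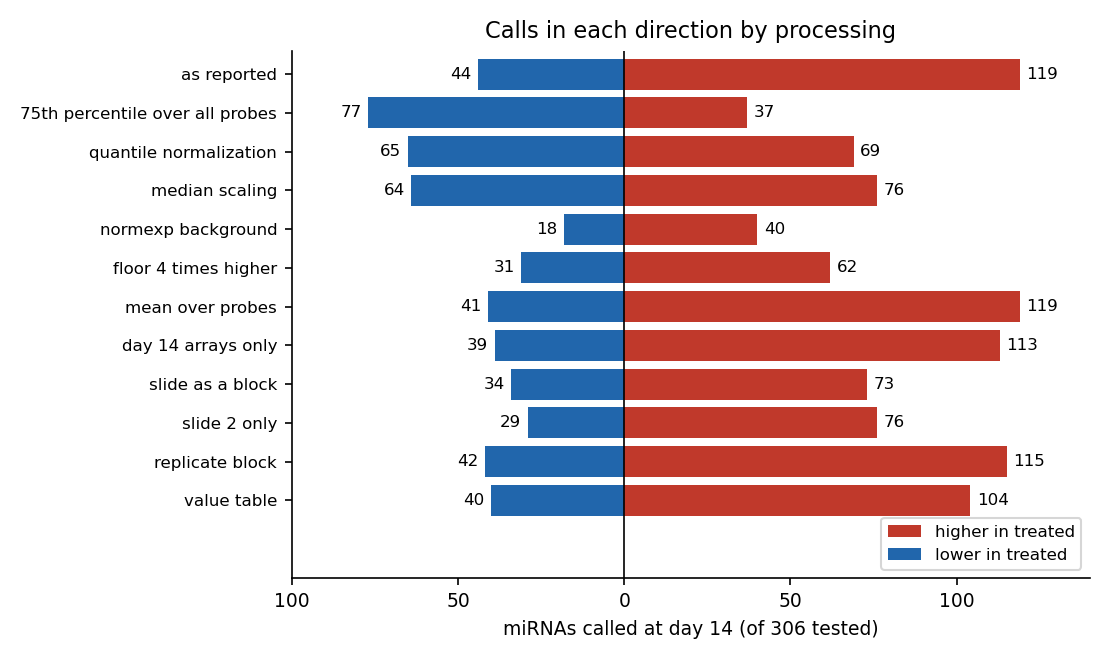
Number of miRNAs called at day 14 under each way of processing (bars to the right: higher in treated; bars to the left: lower). The main setting gives 119 and 44, the 75th percentile over all probes 37 and 77, and slide as a block 73 and 34.

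Treatment effects were also compared between day 14 and day 9, each against its own controls. The effects differed for 100 of 306 miRNAs (32.7%), 51 upward and 49 downward at day 14 (limma interaction, adjusted p below 0.05). Of the 163 miRNAs called at day 14, 100 were called the same way at day 9, 14 the opposite way and 49 not at all. Of the 64 steady ones these counts were 43, 4 and 17. All day 9 treated arrays were on slide 1 and all day 9 controls on slide 2. Slide could be estimated only from the treated day 14 arrays, which lie on both slides, and with that block 75 miRNAs were called at day 9 (56 higher, 19 lower) instead of 170. The counts shared with day 9 above are without the block.

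miR-132-3p turned over most: it was -1.65 ± 0.04 in treated and -3.92 ± 0.29 in control cells at day 9 (SD, n = 3), and -2.87 ± 0.12 and -2.08 ± 0.15 at day 14, a change of effect of -3.06 (adjusted p = 4.5e-08). The effect of miR-129-2-3p also turned, by -2.16 (adjusted p = 5.4e-06). The effect of miR-29a-3p shrank by -1.09 as its level in controls went from -3.93 to -3.03, and that of miR-7a-5p from 0.99 to 0.24. In the other direction miR-370-3p gained 1.46 (adjusted p = 0.00016) and miR-494-3p 1.01 (adjusted p = 0.00012), and neither was called at day 9, where the differences were 0.15 and 0.19. The effects of miR-34b-5p, miR-124-3p and miR-9-3p changed by 0.02, -0.07 and -0.03 and were not called different.

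**Figure D5:**
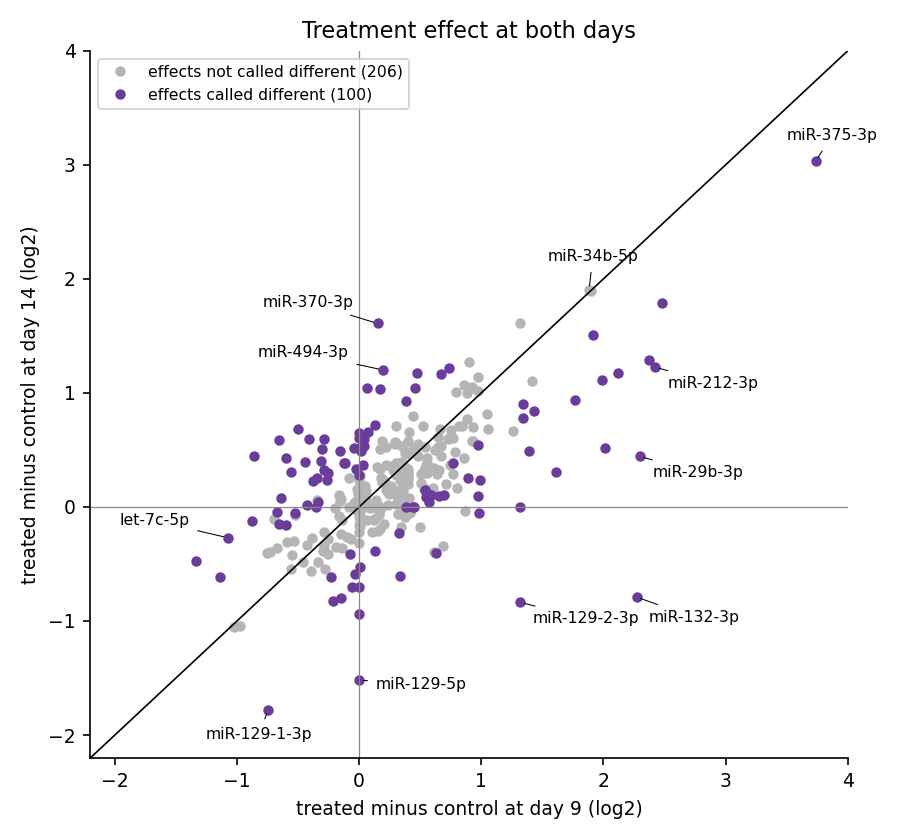
Treated minus control (log2) at day 9 (x axis) and day 14 (y axis) for 306 miRNAs; purple points are the 100 whose effects differed between days. miR-132-3p lies at 2.27 and -0.79, and miR-375-3p at 3.74 and 3.03.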

How the data were processed

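miRNAs were measured on one-colour Agilent mouse miRNA arrays (15 in all, 6 at day 14). Per the file headers, the authors' deposited scanner files were made with Feature Extraction 11.0.1.1 and hold spot intensity, background-corrected by that software; their flags (outlier, above background, saturated) are of the unit other, also per the file headers. The submitters' processing notes name limma 3.20.9, and the deposited value table was an alternative only, since its second treated day 14 column equals the first for 86.1% of probes.

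Here processed intensity was averaged per probe (outlier spots left out), scaled to each array's 75th percentile of 353 probes above background on all 15 arrays, floored at -4.27 after log2, and reduced to the brightest probe per miRNA. A probe was above background where at least 50% of its spots were. limma 3.58.1 in R 4.3.3 was fitted on all 15 arrays by group (residual df 10), with Benjamini-Hochberg adjustment over 306 miRNAs. "At least" folds use, per control array, the lowest signal above background. Named miRNAs were the 15 largest changes without overlap in each direction, up to 5 called members of each list, 9 miRNAs fixed by name, hairpins with opposite arms, and the 5 with the largest slide gap; seed relatives, hairpin neighbours and list members named beside them were chosen after their values were seen. Members and lists were chosen with earlier results of these data known. Sequences of 227 of the 306 miRNAs were matched in RefSeq. The code was tested on simulated data. Alternatives covered scaling, background (normexp on median spot signals), floor, filters, slide, replicates and the value table. Same-numbered replicates did not deviate together (r = -0.057, -0.244 and -0.156), so numbers were not treated as pairs. The number of arrays limits the precision.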

Additional observations from a re-analysis of the deposited data

Results flagged for a closer look

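For 42 of the 78 named and tested miRNAs the treatment effect at day 14 differed from that at day 9 (limma interaction, adjusted over 306 miRNAs). Over all 306 miRNAs it differed for 100 (32.7%). Many miRNAs were named for the size of their day 14 effect, which enters this contrast. A larger share among them is thus partly fixed by the selection. Values are the day 14 effect minus the day 9 effect, on the log2 scale. Treated arrays of day 9 were all on slide 1, and every control array on slide 2. A block for slide rests on the treated arrays of day 14, which lie on both slides.

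Among miRNAs of neurons, the change was -3.06 for miR-132-3p, -1.20 for miR-212-3p, -2.16 for miR-129-2-3p, -1.52 for miR-129-5p and -1.03 for miR-129-1-3p. It was -0.94 for miR-138-5p, -0.75 for miR-7a-5p, -0.61 for miR-128-3p and -0.38 for miR-598-3p. As miR-138-5p and miR-129-5p were above background on no day 9 array, their values are the day 14 differences alone. With a block for slide miR-598-3p no longer passed the threshold (adjusted p = 0.076).

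In the miR-29 family the change was -1.85 for miR-29b-3p, -1.09 for miR-29a-3p and -0.42 for miR-29c-3p. In the miR-23, miR-27 and miR-24 clusters it was -0.69 for miR-27a-3p, -0.44 for miR-24-3p and -0.40 for miR-23a-3p. For miR-375-3p it was -0.70. All of these were higher in treated cells on both days, by less at day 14.

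The glial miRNAs miR-338-3p and miR-219-5p changed by -1.04 and -0.56. The change was -1.30 for miR-322-5p, -0.94 for miR-101c, -0.94 for miR-674-3p, -0.83 for miR-5117-3p, -0.70 for miR-326-3p, -0.66 for miR-188-5p and -0.64 for miR-5103. It was -0.55 for miR-5099, -0.54 for miR-135b-5p, -0.38 for miR-301b-3p and -0.34 for miR-363-3p. The same block gave an adjusted p of 0.079 for miR-5117-3p and miR-301b-3p, which were then not called. For miR-326-3p, above background on no day 9 array, the value is the day 14 difference alone.

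Effects moved upward for miR-370-3p by 1.46 and for miR-494-3p by 1.01, both of the Dlk1-Dio3 cluster. Progenitor miRNAs moved by 0.98 for miR-92b-3p, 0.87 for miR-135a-1-3p and 0.69 for miR-135a-2-3p. let-7c-5p and let-7i-5p, lower in treated cells on both days, moved by 0.81 and 0.53. The change was 0.60 for miR-30c-1-3p, 0.58 for miR-721, 0.58 for miR-3096b-3p, 0.51 for miR-1907, 0.49 for miR-193-3p and 0.48 for miR-466b-3p.

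Outside the mouse miRNAs, 4 viral miRNA probes differed by a median of 0.17. The probe for mcmv-miR-m88-1 stood out with 1.00, at -1.56, -1.55 and -1.93 in treated and -2.51, -2.67 and -2.85 in control cells, and this difference was not tested.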

How the results depend on the processing

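The 163 calls at day 14 became 93 with a floor 4 times higher, 58 with normexp background, 105 from slide 2 only and 107 with slide as a block. They were 145 to 165 when 1 replicate was left out. With the replicate block 157 were called at day 14 and 97 for the difference between days (100 without it, and 21 with normexp background, 58 of 192 above background on all 15 arrays and 71 of 1122 with no filter), but same-numbered replicates did not deviate together. Of 64 steady miRNAs, 33 were called with normexp and 38 with the higher floor, where 21 lay at the floor on all 6 arrays. Of 78 named and tested miRNAs, 25 kept their direction and side of the threshold in all 19 alternatives that tested them. With no filter, most variances were 0 and limma's moderation was unreliable. Signs turned with the 75th percentile over all probes for miR-106b-3p (-0.0174), miR-16-5p (-0.13), miR-17-3p (-0.19), miR-30a-3p (-0.0279), miR-30a-5p (-0.16), miR-30b-5p (-0.0342), miR-322-5p (-0.0627), miR-7a-5p (-0.14) and miR-93-5p (-0.14). They turned with quantile normalization for miR-106b-3p (-0.00904), miR-17-3p (-0.11) and miR-30a-3p (-0.0733), with median scaling for miR-17-3p (-0.0177) and miR-30a-3p (-0.00927), with normexp for miR-106b-3p (-0.0626), miR-1907 (-0.0272) and miR-30a-3p (-0.0612), and with the mean over probes for miR-3096b-5p (0.11). The cause was not tested. Dim signals near the floor limit small differences.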
